A study of Homo sapiens with 6 samples.

Results

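The IFIT genes (interferon-induced proteins with tetratricopeptide repeats) were examined in BL-2 cells, an established cell line of Burkitt lymphoma, a B cell cancer with a germinal centre phenotype. Their members were taken as every probe set that the platform annotation gives a single gene symbol equal to IFIT1, IFIT2, IFIT3 or IFIT5, which yielded 4 of 19775 genes, with 7 of the 54613 probe sets tested. IFIT3, IFIT2 and IFIT5 have 2 probe sets each and IFIT1 has 1, and probe sets of 1 gene report on the same transcripts. The family was singled out because of its difference between LPS and control cells, so those differences are given below as descriptions without a test.

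The groups were measured on 3 Affymetrix arrays each: BL-2 cells kept for 6 h with lipopolysaccharide (LPS, found in the outer membrane of Gram-negative bacteria), and BL-2 cells with no treatment. All arrays hold the same cell line, and the labels do not state whether the 3 samples of a group were grown as separate cultures. The p-values therefore reflect only the spread among these samples, part of which may be technical. Of 12 B cell markers, 11 were measured, and the mean over them lay between 10.53 and 10.63 on the LPS arrays and between 10.70 and 10.84 on the control arrays. The array medians over all tested probe sets were 6.42 to 6.47. Markers of other cell types had mean levels per list from 6.18 to 6.55 on the LPS arrays and from 6.18 to 6.54 on the control arrays. Single markers had means over all 6 arrays of up to 7.99. Of their 41 measured genes, 0 passed the limma test and 0 had an unadjusted p under 0.05. Over all genes these shares were 0.389% and 9.56%.

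The arrays fell into 2 sets by the level of transcripts added to every hybridisation. Set A held LPS 1, LPS 2 and control 1, at a mean of 10.24 ± 0.045, and set B held LPS 3, control 2 and control 3, at 10.57 ± 0.051 (log2 units, SD, n = 3 arrays each). Each pooled difference is accompanied by its values within the sets.

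IFIT proteins are cytosolic RNA-binding proteins that most cells make in quantity only after interferon or a viral infection. They bind RNA ends that mark a transcript as foreign and keep it from being translated. Their promoters carry interferon-stimulated response elements (ISRE), which bind ISGF3, a complex that holds IRF9 and forms after type I interferon, and can also be bound by IRF3, which the kinases TBK1 and IKBKE activate downstream of TLR3, TLR4 and cytosolic RNA sensors. In responsive cells LPS reaches IRF3 through TLR4 and the adaptor TICAM1.

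The genes lie next to each other on chromosome 10 in the order IFIT2, IFIT3, the pseudogene IFIT6P, IFIT1B, IFIT1 and IFIT5. The sequences upstream of their starts are shown because these are the stretches in which an ISRE would be read. They come from RefSeq on GRCh38.p14, all on the plus strand, and hold the 250 bases before the annotated start, 5′ to 3′, with capitals for every match to the ISRE core, 2 copies of GAAA parted by 2 free bases, searched on both strands. Promoters were matched for IFIT3 (2 starts), IFIT1, IFIT5 and IFIT1B. The reference held no promoter for IFIT2, so its upstream sequence was not searched.
IFIT3, first start, chr10:89327747-89327996: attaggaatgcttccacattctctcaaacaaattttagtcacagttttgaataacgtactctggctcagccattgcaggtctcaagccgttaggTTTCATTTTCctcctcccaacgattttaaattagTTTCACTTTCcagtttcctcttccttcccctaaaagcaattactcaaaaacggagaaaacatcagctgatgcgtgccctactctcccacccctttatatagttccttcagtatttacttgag
IFIT3, second start, chr10:89332279-89332528: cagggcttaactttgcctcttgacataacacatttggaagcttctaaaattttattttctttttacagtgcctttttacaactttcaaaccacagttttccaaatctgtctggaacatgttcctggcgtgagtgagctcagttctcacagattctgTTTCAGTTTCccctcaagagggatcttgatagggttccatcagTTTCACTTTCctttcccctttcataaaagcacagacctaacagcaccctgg
IFIT1, chr10:89392373-89392622: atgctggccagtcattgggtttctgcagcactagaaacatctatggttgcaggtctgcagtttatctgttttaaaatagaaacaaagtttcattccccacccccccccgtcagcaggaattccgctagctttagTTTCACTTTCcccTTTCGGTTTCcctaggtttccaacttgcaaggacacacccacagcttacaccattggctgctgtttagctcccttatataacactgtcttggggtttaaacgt
IFIT5, chr10:89414318-89414567: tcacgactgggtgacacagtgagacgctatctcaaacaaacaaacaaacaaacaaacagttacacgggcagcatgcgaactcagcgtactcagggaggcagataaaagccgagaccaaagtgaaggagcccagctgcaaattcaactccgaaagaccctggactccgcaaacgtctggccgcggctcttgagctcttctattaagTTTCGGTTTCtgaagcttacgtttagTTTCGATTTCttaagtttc

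Each of these 4 windows held 2 core matches, and all of them read as copies of TTTC on the gene's strand. The letters TTTCACTTTC stood upstream of both IFIT3 starts and of IFIT1, and TTTCGGTTTC upstream of IFIT1 and of IFIT5. No 2 matches in a window overlapped. The core was found in 3.02% of all 35116 promoter windows of this length, and 2 or more matches in 0.225%. The matches lay from -156 to -113 and from -94 to -42 at the IFIT3 starts, from -116 to -94 at IFIT1 and from -45 to -10 at IFIT5. With the 50 bases after the start included, IFIT5 held 3. The window of IFIT1B, which has no probe set here, held 0. A match of letters is no proof of a bound site.

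**Figure D1:**
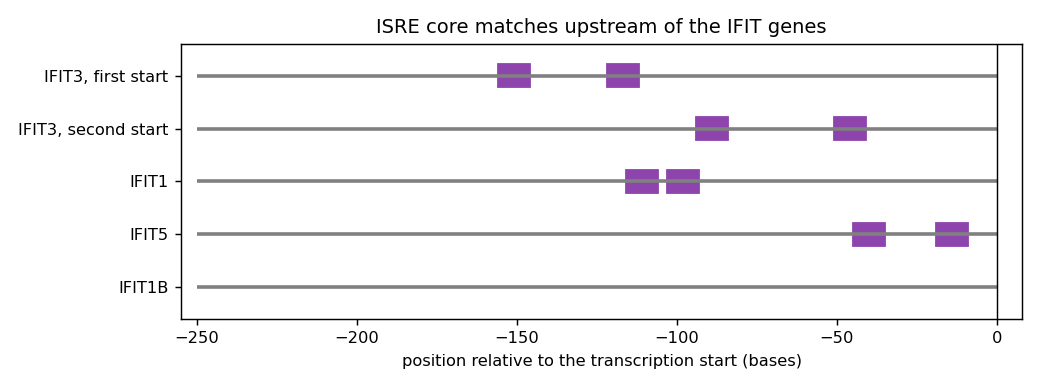
Matches to the ISRE core (filled boxes) in the 250 bases upstream of each annotated start, with the position in bases relative to the start on the horizontal axis. IFIT3, IFIT1 and IFIT5 hold 2 matches in each window and IFIT1B holds 0, and the IFIT5 pair lies nearest to the start. IFIT2 had no matched promoter and is not shown.

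IFIT3, a scaffold that stabilises IFIT1 and strengthens its grip on RNA, had the widest separation of the groups. Its probe set 229450_at stood at 7.50, 7.45 and 7.56 on the LPS arrays 1 to 3, against 6.53, 6.41 and 6.42 on the control arrays 1 to 3, in deposited log2 units. The lowest LPS value lay 0.92 above the highest control value. The difference of means was 1.05 (SE 0.064, n = 3 per group), with 0.95 within array set A and 1.14 within set B. As a ratio of deposited values this is 2.07-fold, but the control values lie near the array medians and no detection calls were used, so whether they are above background is not known and the ratio of transcripts may be higher. Of all tested probe sets it had the highest positive difference. Leaving out any single array gave 1.02 to 1.09.

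The other IFIT3 probe set, 204747_at, stood at 7.01, 7.03 and 7.32 on the LPS arrays, against 6.65, 6.58 and 6.51 on the control arrays. Here too all LPS values lay above all control values, and LPS 3 was the highest. The difference was 0.54 (SE 0.081), with 0.37 within set A and 0.77 within set B. The mean of both probe sets gave 0.80. Of the IFIT3 pair, 229450_at had the higher mean over all 6 arrays, 6.98 against 6.85, but over the control arrays alone 204747_at did, 6.58 against 6.45, so a choice of the brighter probe set depends on whether LPS arrays are counted.

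IFIT1, which binds messenger RNA whose cap lacks ribose methylation and blocks its translation, stood at 6.39, 6.36 and 6.58 on the LPS arrays, against 5.88, 6.07 and 5.98 on the control arrays (203153_at). The groups did not overlap, and LPS 3 was again the highest. The difference was 0.47 (SE 0.067), with 0.49 within set A and 0.55 within set B. Its control values lay below the array medians, toward the lower end of each array at 5.46 to 5.53. The values of LPS 1 and LPS 2 also lay below the medians of their arrays, and that of LPS 3 lay above.

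IFIT2, which forms a complex with IFIT1 and IFIT3 and binds AU-rich RNA, gave unlike values by its 2 probe sets. By 226757_at it stood at 6.50, 6.76 and 6.36 on the LPS arrays, against 6.26, 6.25 and 6.07 on the control arrays. All LPS values were the higher ones, but the gap between LPS 3 and control 1 was 0.10. LPS 3 and all control values of this probe set lay below the medians of their arrays. The difference was 0.34 (SE 0.087), with 0.37 inside set A and 0.20 inside set B. It ran from 0.23 to 0.43 when single arrays were left out. By 217502_at it stood at 6.95, 7.05 and 6.85 on the LPS arrays, against 6.70, 6.95 and 6.93 on the control arrays. These groups overlapped, with control 2 and control 3 above LPS 3, and the difference of 0.09 (SE 0.079) came to 0.30 over the arrays of set A and to -0.09 over those of set B. It was 0.0075 without control 1, 0.04 without LPS 2, 0.13 without control 2 and 0.14 without LPS 3.

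IFIT5, which acts as a monomer and binds RNA with a triphosphate end, showed little separation. By 203595_s_at it stood at 6.54, 6.53 and 6.53 on the LPS arrays, against 6.53, 6.53 and 6.44 on the control arrays. By 203596_s_at it stood at 6.47, 6.42 and 6.34 on the LPS arrays, against 6.38, 6.35 and 6.36 on the control arrays. The groups overlapped for both probe sets. The differences were 0.03 (SE 0.055) and 0.05 (SE 0.055), at 0.00053 and 0.07 within set A and 0.04 and -0.01 within set B. Without single arrays they ran from -0.00014 to 0.045 for 203595_s_at and from 0.022 to 0.084 for 203596_s_at.

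**Figure D2:**
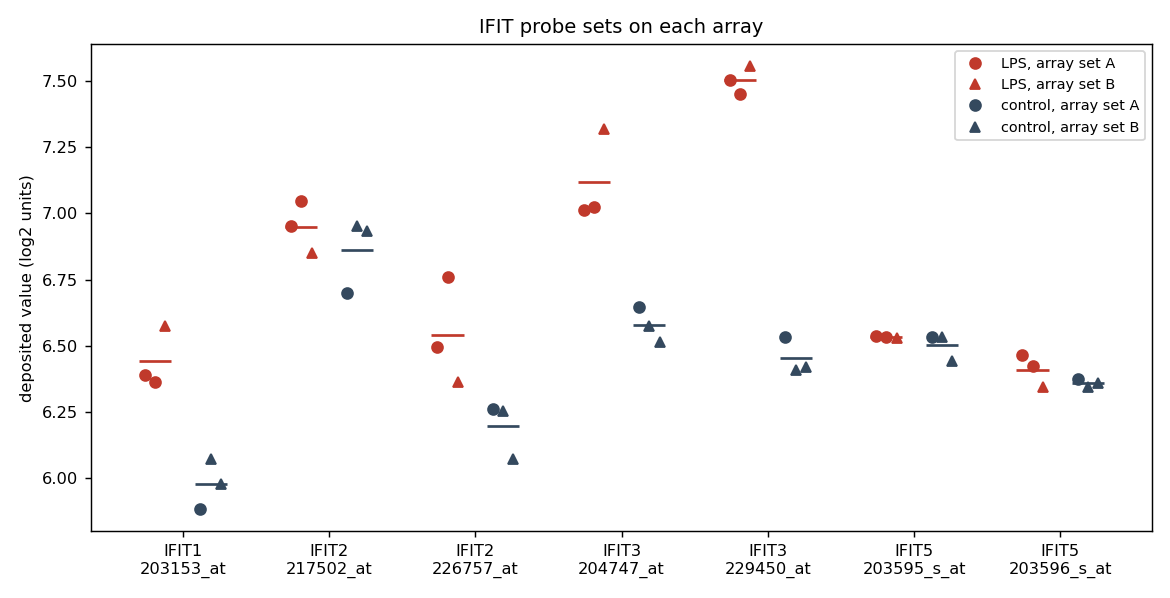
Deposited values (log2 units) of the 7 IFIT probe sets on each array, with LPS arrays left of control arrays, circles for array set A, triangles for array set B and lines at group means (n = 3 each). All LPS points lie above all control points for IFIT1, both IFIT3 probe sets and IFIT2 226757_at, and the groups overlap for IFIT2 217502_at and both IFIT5 probe sets.

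Over the family, all 7 differences were above 0, with a median of 0.34, against a median of 0.00 over all tested probe sets. In 4 of the 7 every LPS value lay above every control value. This was so for 7.00% of all tested probe sets, and since the family was chosen on this contrast nothing is read from the comparison. The order of the differences was IFIT3, IFIT1, IFIT2 and IFIT5 by the probe set with the larger difference of each gene. IFIT3 229450_at lay 0.51 above the next probe set, IFIT3 204747_at, with an SE of 0.079 taken from the differences of the 2 probe sets on each array. The gap between IFIT3 204747_at and IFIT1 was 0.07 (SE 0.090), that between IFIT1 and IFIT2 226757_at 0.12 (SE 0.19), and that from IFIT2 226757_at down to IFIT2 217502_at 0.26 (SE 0.14). The last 3 probe sets lay within 0.04 of their neighbours. These gaps are descriptions of the differences that chose the family.

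**Figure D3:**
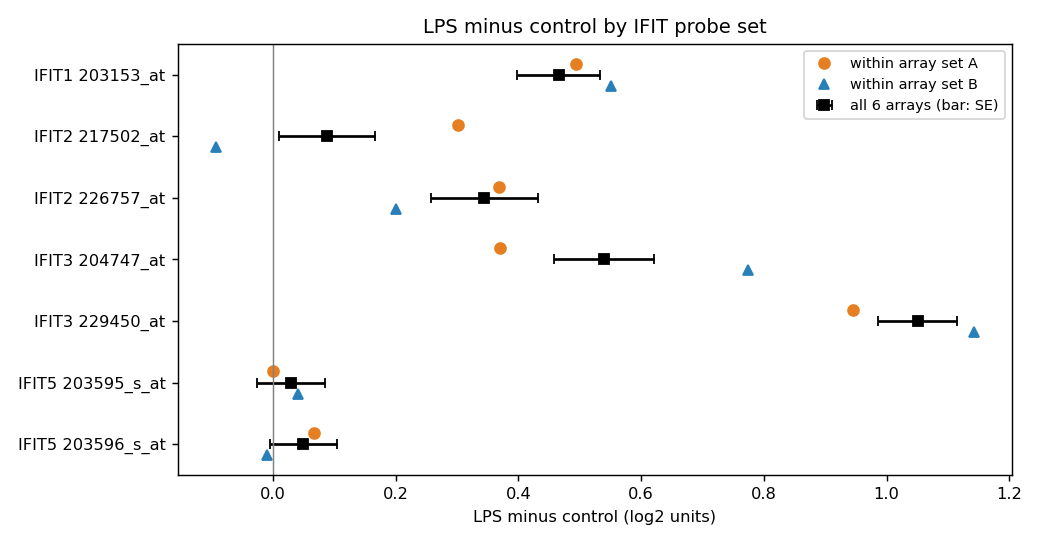
LPS minus control (log2 units) for each IFIT probe set over all 6 arrays (squares, bars show the SE), within array set A (circles) and within array set B (triangles). IFIT3 229450_at lies at 1.05, above the others, and the 2 sets differ in sign for IFIT2 217502_at and IFIT5 203596_s_at.

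The array sets gave a measure that played no part in the choice of the family. With treatment in the limma fit, 0 of the 7 IFIT probe sets differed between set B and set A after adjustment over all probe sets, and 4.54% of all tested probe sets passed. An unadjusted p under 0.05 was found for 2 of the 7 and for 15.4% of all tested probe sets. Those 2 moved in opposite directions: IFIT1 had a difference of 0.17, set B minus set A (SE 0.058, adjusted p = 0.103), and IFIT2 226757_at was at -0.18 (SE 0.073, adjusted p = 0.202). IFIT3 229450_at was at -0.02 (SE 0.068, adjusted p = 0.942). LPS 3 is the single LPS array of set B. It had the highest LPS value for IFIT1 and both IFIT3 probe sets, and the lowest for both IFIT2 and both IFIT5 probe sets. Whether IFIT1 and IFIT2 truly part between arrays was not tested.

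Genes were ranked by how like their pattern over the 6 arrays was to that of IFIT3 229450_at, with IFIT genes left out of the ranking. After each gene's mean over the arrays was subtracted, the smallest root mean square difference from IFIT3 was that of LINC00158, a long non-coding RNA, at 0.095 log2 units. RILPL2, a regulator of ciliary membrane content, followed at 0.15, CD58, the ligand of the T cell receptor CD2, at 0.15, MAN1A1, a Golgi mannosidase, at 0.18, and HLA-DQB1, a chain of an MHC class II molecule, at 0.19. LINC00158 stood at 7.34, 7.45 and 7.56 on the LPS arrays, against 6.47, 6.55 and 6.48 on the control arrays, a difference of 0.95 (SE 0.069). This measure favours genes with a difference of similar size. By it the other IFIT3 probe set was at 0.27, with 17 genes closer, IFIT1 at 0.31, with 36 genes closer, and IFIT2 226757_at at 0.39, with 192 genes closer. The remaining IFIT2 probe set and both IFIT5 probe sets were at 0.50 to 0.51.

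**Figure D4:**
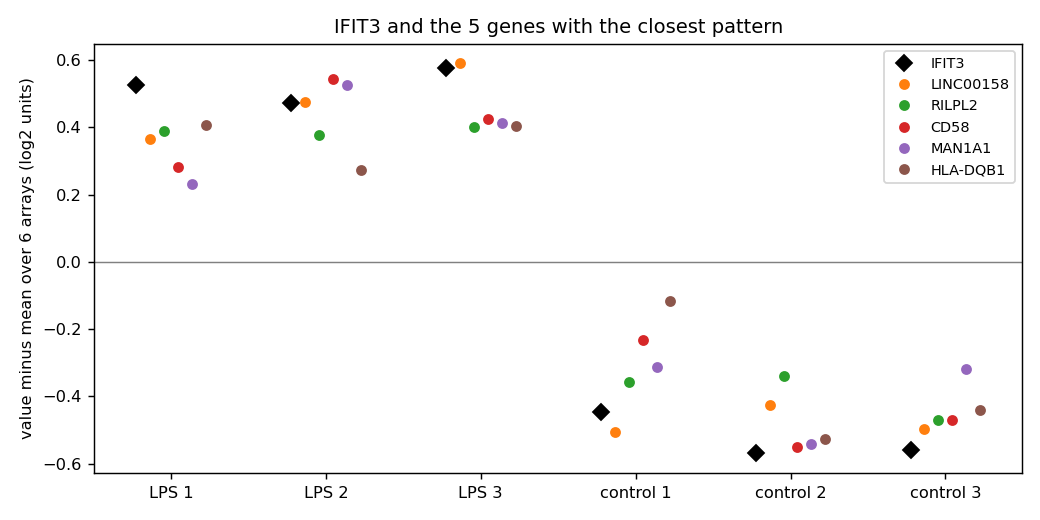
Value minus the gene's mean over the 6 arrays (log2 units) for IFIT3 229450_at (diamonds) and the 5 genes with the smallest root mean square difference from it (circles), on LPS 1 to 3 and control 1 to 3. All 6 genes lie above 0 on the LPS arrays and below 0 on the control arrays. This follows from choosing the genes by closeness to IFIT3, so nothing is read from it.

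The genes around the IFIT family were read from 10 lists holding 153 measured genes, each by its brightest probe set. Of these 2 rose, 1 fell and the rest did not pass the limma test. With array set as a block 3 were higher and 8 lower past the same threshold, against 0.865% and 1.16% of all genes. The balance of directions among the genes that passed therefore depends on that block. The 3 that passed make 1.96% of the 153, against 0.389% of the 19775 genes tested, of which 36 (0.182%) rose and 41 (0.207%) fell. An unadjusted p under 0.05 was found for 31 of the 153, and for 9.56% of all genes. The lists were chosen with earlier results of these data known, so these shares, and those of each list below, are descriptions only. The median difference was -0.01 over the 153 and 0.00 over all genes. The count of 3 depends on the arrays used: it was 5 without control 1, 0 without control 3 or LPS 2, and 1 without control 2, LPS 1 or LPS 3.

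On the route from TLR4 to IRF3, 1 of 13 measured genes rose and 0 fell, with a median of 0.01. IKBKE, the kinase that with TBK1 activates IRF3, stood at 8.81, 8.87 and 8.78 on the LPS arrays, against 8.29, 8.06 and 7.94 on the control arrays. All LPS values were above all control values, and the difference was 0.72 (SE 0.093, adjusted p = 0.00735). Its other probe set rose by 0.64 (SE 0.077, adjusted p = 0.00556). Without control 3 the adjusted p of IKBKE was 0.0676, and without LPS 2 it was 0.079. IRF3 itself gave -0.15 (SE 0.083, adjusted p = 0.705). The LPS co-receptor CD14 gave -0.11 (SE 0.056, adjusted p = 0.682), with values from 6.12 to 6.32, all below the array medians.

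Of 9 measured sensors of nucleic acids in the cytosol, 0 passed the limma test and 1 had an unadjusted p under 0.05. That gene was IFIH1, also called MDA5, which recognises long double-stranded RNA. It stood at 7.96, 7.95 and 7.79 on the LPS arrays, against 7.61, 7.65 and 7.44 on the control arrays, a difference of 0.33 (SE 0.081, adjusted p = 0.148) with no overlap. Its dimmer probe sets gave 0.03 and 0.01. STING1, the adaptor of the DNA sensor CGAS, gave -0.12 by one probe set and 0.06 by the other. RNF135, a ubiquitin ligase that acts on the sensor RIGI, gave -0.11 and -0.08.

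Interferons themselves showed no difference that passed. Of 21 listed, 18 were measured, 0 passed the limma test and 0 had an unadjusted p under 0.05, with differences from -0.08 to 0.07. Their mean level lay between 6.06 and 6.08 on the LPS arrays and between 6.06 and 6.09 on the control arrays, below the array medians. The smallest p-values were those of IFNA8 at -0.08, IFNA21 at 0.07 and IFNW1 at -0.07. IFNA genes are near-identical copies, and their probe sets may not tell them apart.

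Among interferon receptors, JAK kinases and IRF9, 0 of 10 measured genes passed the limma test and 2 had an unadjusted p under 0.05. JAK2 gave 0.29 (SE 0.094, adjusted p = 0.355), while dimmer JAK2 probe sets gave -0.05 and 0.06. JAK1, a kinase of the type I receptor, gave -0.18 (SE 0.080, adjusted p = 0.582), while dimmer JAK1 probe sets gave -0.06 to 0.06. IL10RB, a chain of the type III interferon receptor, gave -0.17. Among interferon regulatory factors 0 of 8 passed and 2 had an unadjusted p under 0.05. IRF4, a factor of plasma cell differentiation, stood at 10.98, 10.84 and 10.64 on the LPS arrays, against 10.44, 9.99 and 10.30 on the control arrays, a difference of 0.58 (SE 0.12, adjusted p = 0.0852). IRF8, a factor of germinal centre B cells and myeloid cells, stood at 10.64, 10.49 and 10.73 on the LPS arrays, against 10.92, 11.11 and 11.11 on the control arrays, a difference of -0.43 (SE 0.10, adjusted p = 0.13). The groups did not overlap for either factor, and the directions were opposite. With array set as a block both passed, IRF4 at 0.48 (adjusted p = 0.00189) and IRF8 at -0.37 (adjusted p = 0.00692). Dimmer probe sets of IRF4 gave 0.26 and 0.03.

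Other interferon-induced genes lay on both sides of 0. Of 59 measured, 1 rose and 1 fell, 26 lay above 0 and 33 below, and the median was -0.03 with a range from -0.57 to 0.33. All LPS values lay above all control values in 8 (13.6%), against 7.95% of all genes, and below them in 10 (16.9%), against 7.80% of all genes. With array set as a block 6 of the 59 passed, 1 higher and 5 lower. The higher one was IFI44, and the lower ones were TRIM22, OAS2 and, named after their values were seen, IFI16, IFITM1 and OAS1. IFI44, an interferon-induced antiviral protein, stood at 6.45, 6.44 and 6.50 on the LPS arrays, against 6.07, 6.10 and 6.24 on the control arrays, a rise of 0.33 (SE 0.058, adjusted p = 0.0333). Its other probe set gave 0.11 (adjusted p = 0.581), and the call was lost on leaving out any single array, with adjusted p up to 0.176. The call was also lost in limma with a variance prior without a trend (adjusted p = 0.0609). All IFI44 values by the called probe set but that of LPS 3 lay below the array medians. TRIM22, an antiviral ubiquitin ligase, stood at 9.36, 9.12 and 9.27 on the LPS arrays, against 9.95, 9.74 and 9.77 on the control arrays. It fell by 0.57 (SE 0.096, adjusted p = 0.0245), a call lost on leaving out control 2, control 3 or any LPS array, with adjusted p up to 0.201. OAS2, which makes the activator of the ribonuclease RNase L, gave -0.36 (SE 0.085, adjusted p = 0.131), and -0.43 with array set as a block (adjusted p = 0.00183). Its further probe sets gave -0.10 and -0.27. Levels of B cell markers also differed between the groups, with 9 of 11 below 0 and a median of -0.31. Of these 0 passed the limma test and 7 had an unadjusted p under 0.05, against 9.56% of all genes. With array set as a block 5 lower ones (CD79A, CD38, POU2AF1, BCL6 and EBF1) passed, against 1.16% of all genes. PAX5 and CD74 lay above 0, at 0.31 and 0.02, and MS4A1 was at -0.07. The part of these markers in the result was not tested.

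**Figure D5:**
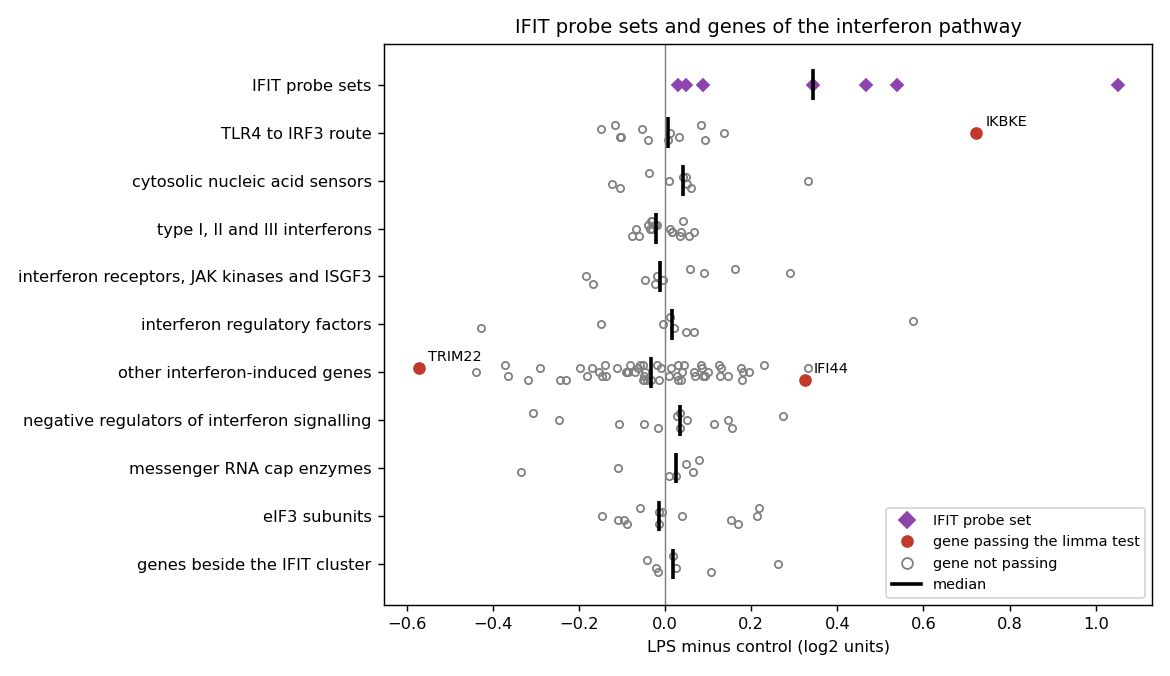
LPS minus control (log2 units) for the 7 IFIT probe sets (diamonds) and for each measured gene of the 10 lists (circles, filled where the gene passed the limma test), with a vertical bar at each list's median. IKBKE, IFI44 and TRIM22 are the genes that passed, and the list medians lie between -0.03 and 0.04.

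Of 13 negative regulators of interferon signalling 0 passed the limma test and 3 had an unadjusted p under 0.05. SOCS1, which inhibits JAK kinases, gave -0.31 (SE 0.073, adjusted p = 0.133). It was the 1 gene of the list that passed with array set as a block, at -0.32 (adjusted p = 0.0234). Its other probe sets gave -0.08 to -0.04. The phosphatase PTPN2 gave -0.25 by its brightest probe set, while its others ran from -0.08 to 0.21. The phosphatase PTPN6 has 1 probe set, which gave 0.27.

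IFIT1 binds messenger RNA by the state of its cap, which the listed enzymes make, modify or remove. Of 7 measured cap enzymes 0 passed the limma test and 1 had an unadjusted p under 0.05. RNGTT, which adds the guanosine cap, gave -0.33 (SE 0.093, adjusted p = 0.241), and passed with array set as a block at -0.33 (adjusted p = 0.0269). Its further probe sets gave -0.26, -0.34 and -0.02. DCP2, the decapping enzyme, gave -0.11, with its other probe sets from -0.19 to 0.02, and NUDT16 gave 0.08, with its others from -0.11 to -0.02. The translation factor eIF3, to which IFIT1 and IFIT2 bind, had 0 of 13 subunits passing and 2 with an unadjusted p under 0.05. EIF3J gave 0.22 and, by its other probe set, 0.34. EIF3M gave 0.21, with its others from -0.01 to 0.19. EIF3A gave 0.17, with its others at 0.01 and 0.17.

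Genes beside the IFIT cluster on chromosome 10 gave 0 of 7 measured genes passing the limma test, with 1 at an unadjusted p under 0.05. That gene was FAS, the death receptor, which stood at 6.95, 7.06 and 6.96 on the LPS arrays, against 6.82, 6.61 and 6.75 on the control arrays, a difference of 0.26 (SE 0.068, adjusted p = 0.186). The remaining FAS probe sets ran from -0.02 to 0.22. PANK1, a kinase of coenzyme A synthesis, gave 0.11, and KIF20B, a mitotic kinesin, gave -0.04, with its others at -0.14 and -0.05. The nearest protein-coding genes outside the cluster with a probe set were LIPA and PANK1, and LIPA, the lysosomal acid lipase, gave 0.02 (SE 0.093).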

How the data were processed

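The deposited table holds 1 value per Affymetrix probe set and array, read as log2 values because all 54675 per array lay between 5.46 and 14.81. The authors' background correction, summary and normalisation are not given in the sources used here. Per the labels' protocols, column-purified RNA was biotin labelled by in vitro transcription. Columns were assigned by sample, and no detection calls were used.

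The 62 control probe sets were left out and 54613 tested in R 4.3.3 with limma 3.58.1 (group as the only term, empirical Bayes with a trend on intensity, two-sided tests, Benjamini-Hochberg adjustment across the whole table, threshold 0.05). A "gene" is the single-symbol probe set whose mean across arrays is highest (19775 genes). Symbols came from the platform annotation, and 41037 of 41091 matched RefSeq (GRCh38.p14). Array sets were parted at the widest gap, 0.22 log2 units, in the mean of 18 hybridisation control probe sets. The number of arrays limits the precision.

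The members and the gene lists were chosen with earlier results of these data known. Named were all member probe sets, every list gene that passed, the 3 genes of smallest p in each list, and the 5 genes most like IFIT3. LIPA, IFI16, IFITM1, OAS1 and the B cell markers were named beyond that rule, after their values were seen. Alternatives were blocks on replicate number and array set, quantile normalisation, median centring, array weights, a variance prior without a trend, a filter on dim probe sets, other choices of probe set, and leaving out each array.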

Additional observations from a re-analysis of the deposited data

How the results depend on the processing

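The difference of IFIT3 229450_at was 1.02 to 1.09 under both blocks, quantile normalisation, median centring and leaving out single arrays, and 0.80 as the mean over both IFIT3 probe sets. The other IFIT differences moved by less than the SD pooled over both groups under these alternatives, though by more than the SD of 1 group alone for both IFIT5 probe sets, IFIT3 204747_at and IFIT2 226757_at, and IFIT5 203595_s_at was at -0.00014 without 1 array. The number of probe sets passing the limma test was 144. It was 734 with array set as a block, 292 with quantile normalisation, 309 with array weights, and 10 to 374 without single arrays. The number of list genes passing was 3. It was 11 with array set as a block, 6 with quantile normalisation, 6 with array weights, 1 without probe sets marked _x_at or _s_at, and 0 to 5 without single arrays. With the replicate number as a block 498 probe sets and 10 list genes passed. Whether the numbers pair the samples is not known. Deviations of same-numbered LPS and control arrays from their group means correlated at 0.44, -0.04 and 0.23. LPS 2 and LPS 3 correlated best with another number, in each case an array of the same array set. These correlations cannot decide the pairing, since deviations within a group depend on each other and the array sets cut across the numbers. Of the 5 genes most like IFIT3, 4 were shared after quantile normalisation. The cause of these changes was not tested. With no detection calls, how far each IFIT level lies above background is not known.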
